A study of Mus musculus with 4 samples.

Results

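Immediate early genes were followed across the cells of Tet2+/- bone marrow: the AP-1 genes Fos, Fosb, Jun, Junb and Jund, the related factor Atf3, the zinc finger factor gene Egr1, and Ier2, Dusp1 and Btg2, which cells induce beside them. The 10 genes were taken by symbol out of 33696 genes in the deposited matrices. Each was counted in every cell class and in each of 4 libraries.

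AP-1 is a pair of basic leucine zipper proteins, in which a Fos protein joins a Jun protein, or Jun proteins join each other, and the pair binds DNA at a short palindrome. Cells induce these genes within minutes of growth factors, cytokines or stress, through kinases that act on factors already bound at the promoters, and their short-lived mRNAs decay quickly again. In marrow they are known for roles in monocyte and granulocyte differentiation, and for rising when tissue is dissociated, sorted or warmed.

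All mice were lethally irradiated recipients of a competitive graft of CD45.1+ Tet2+/+ and CD45.2+ Tet2+/- marrow. After 1 month of engraftment they received, for 7 months, injections of PBS or of 0.29 µg vitamin B12 into the abdomen 2 times a week, and drinking water with 100 mM NaCl or 100 mM sodium butyrate. The 4 groups were Control (PBS and NaCl), Butyrate (PBS and butyrate), B12 (B12 and NaCl) and B12+Butyrate (both). Every library held live CD45.2+ Tet2+/- cells, thawed from the frozen marrow of 3 mice that were pooled, with cKit+ and cKit- cells mixed in equal parts after sorting. Each group was thus 1 library, the Tet2+/+ competitor cells were not sequenced, no Tet2+/+ library served as a control, and the cKit sort rather than the marrow set the shares of the classes. No difference between groups could be tested, and values of single libraries are given with exact 95% Poisson intervals where it matters; these cover counting error only, not the spread between mice.

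After filtering, 6793 to 8752 cells per library remained, with a median of 11583.5 to 12544.5 unique molecular identifiers (UMIs, counted mRNA molecules) per cell. Cells were assigned to 8 classes by marker genes: neutrophil-like (2643 to 4304 cells per library), monocyte-like (1120 to 2101), granulocyte-monocyte progenitor (GMP)-like (134 to 277), haematopoietic stem cell or multipotent progenitor (HSC/MPP)-like (39 to 106), B-lineage-like (502 to 1026), T-like (122 to 335), plasmacytoid dendritic cell (pDC)-like (42 to 121) and conventional dendritic cell (cDC)-like (45 to 94). Their leading genes fitted the names, for example Ltf and Retnlg in neutrophil-like cells, Fn1 in monocyte-like cells, Mpo and Elane in GMP-like cells, and Mecom in HSC/MPP-like cells. Between 639 and 1033 cells per library passed the gates of more than 1 class and were left out of the classes. The pairs of libraries shared 8 to 23 barcodes, at most 0.302% of the smaller library. A level below is in CPM, the UMIs of a gene scaled to a fixed total of UMIs of its class, so it depends on how many other molecules the cells hold.

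The promoters of 4 members, Fos, Atf3, Dusp1 and Btg2, are shown because these share a short motif. RefSeq (GRCm38.p6, not the build of the counts) gave a promoter for 8 of the 10 members, from 250 bases before the start of the gene to 50 after it. Fos lies at chr12:85473640-85473939 on the plus strand, and the others on the minus strand: Atf3 at chr1:191183284-191183583, Dusp1 at chr17:26508423-26508722 and Btg2 at chr1:134079106-134079405. Capitals mark TGACGT, the core of the cyclic AMP response element bound by CREB and ATF proteins, on either strand, and TATAAA, the letters of the TATA box; each is printed 5′ to 3′ on the gene's strand.
Fos: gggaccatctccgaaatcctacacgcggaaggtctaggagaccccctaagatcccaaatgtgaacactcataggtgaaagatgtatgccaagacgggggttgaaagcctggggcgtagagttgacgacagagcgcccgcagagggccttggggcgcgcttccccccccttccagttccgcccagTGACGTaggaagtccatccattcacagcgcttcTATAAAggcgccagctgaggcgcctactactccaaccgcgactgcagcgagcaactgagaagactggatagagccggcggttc
Atf3: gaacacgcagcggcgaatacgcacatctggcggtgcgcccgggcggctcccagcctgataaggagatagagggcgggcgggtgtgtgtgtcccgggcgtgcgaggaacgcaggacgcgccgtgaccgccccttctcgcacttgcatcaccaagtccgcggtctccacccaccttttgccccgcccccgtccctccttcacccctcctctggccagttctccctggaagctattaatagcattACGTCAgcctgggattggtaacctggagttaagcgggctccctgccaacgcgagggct
Dusp1: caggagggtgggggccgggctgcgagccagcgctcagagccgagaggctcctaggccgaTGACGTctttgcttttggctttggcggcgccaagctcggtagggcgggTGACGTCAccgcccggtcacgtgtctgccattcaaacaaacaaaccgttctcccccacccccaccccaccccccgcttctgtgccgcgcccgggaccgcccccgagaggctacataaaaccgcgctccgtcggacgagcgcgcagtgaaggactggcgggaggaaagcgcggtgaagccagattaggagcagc
Btg2: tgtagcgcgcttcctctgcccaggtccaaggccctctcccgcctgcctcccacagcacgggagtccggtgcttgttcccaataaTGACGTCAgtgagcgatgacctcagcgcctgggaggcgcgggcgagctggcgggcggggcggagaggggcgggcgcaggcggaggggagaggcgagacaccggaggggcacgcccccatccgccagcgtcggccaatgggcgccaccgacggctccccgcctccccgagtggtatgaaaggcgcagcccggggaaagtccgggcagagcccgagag
The core TGACGT stood in these 4 of the 8 promoters and in 7.51% of 32851 RefSeq promoters of the same length, both strands searched. In Fos it ran from -66 to -61, counted from the base before the start as -1, with TATAAA from -33 to -28. In Atf3 it lay on the other strand from -8 to -3. Dusp1 held it at -191 to -186 and again, as overlapping matches on both strands, from -143 to -136, and Btg2 held such an overlapping pair from -166 to -159. Neither TGANTCA, the AP-1 site (7.81% of all promoters), nor the CArG box of the serum response factor (1.63%) was found in any of the 8 windows, and TATAAA (13.6%) was found in Fos and in Junb, where it lies at positions 1 to 6, after the annotated start and not before it as a TATA box does. Fosb, Jun and Jund had no match to any of these motifs in the window. Only exact matches were searched, so other forms of these sites, and sites outside the window, were not counted.

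**Figure D1:**
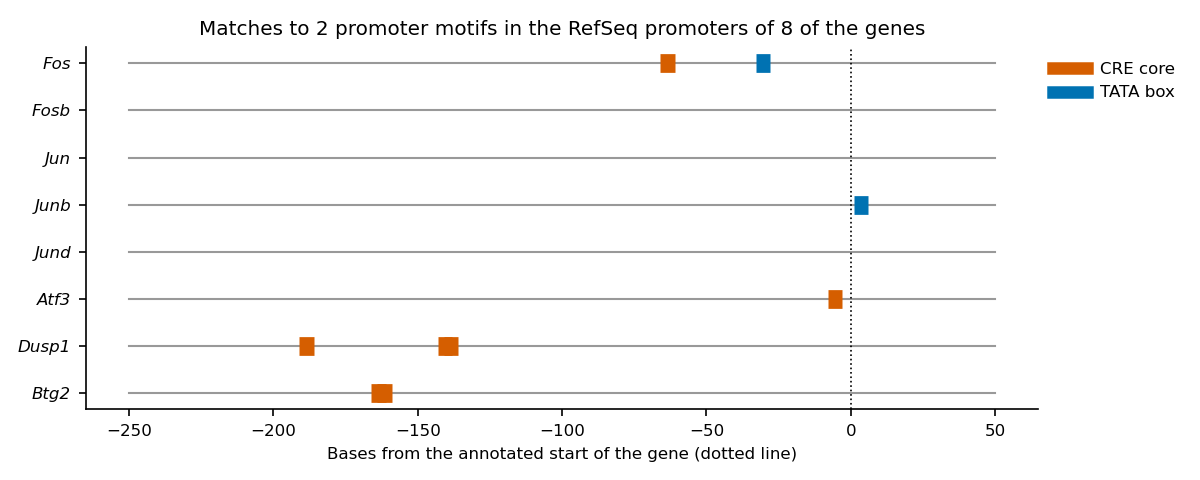
Map of motif matches in the promoters of 8 of the genes, drawn by distance in bases from the annotated start (dotted line at 0). Blocks mark the core of the cyclic AMP response element, found in Fos, Atf3, Dusp1 and Btg2, and the TATA box letters TATAAA, found before the start in Fos (-33 to -28) and after it in Junb (1 to 6).

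Fos, the founding Fos-family subunit, was highest in monocyte-like cells. Its level there was 1732 CPM in Control, 1807 in Butyrate, 1735 in B12 and 1712 in B12+Butyrate, so the libraries lay close together. The next class, cDC-like cells, had 788 to 934 CPM and neutrophil-like cells had 690 to 742, with no overlap between these ranges. B-lineage-like cells followed with 504 to 613 CPM, and HSC/MPP-like, pDC-like, GMP-like and T-like cells, at 296 to 593 CPM, overlapped their neighbours in the order. Fosb, the subunit induced with Fos, was spread more evenly: 896 to 1146 CPM in monocyte-like cells, overlapping B-lineage-like, cDC-like and HSC/MPP-like cells. Fosb in pDC-like cells, at 710 to 875 CPM, lay below the monocyte-like range. Its lowest levels were 496 to 540 CPM in neutrophil-like and 359 to 570 CPM in GMP-like cells.

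Among the Jun proteins, the partners of Fos in AP-1, the 3 genes had 3 different orders of classes. Jun, the strong activator of the family, was highest in pDC-like cells at 1164 to 1338 CPM, and each class overlapped its neighbour down to T-like cells at 417 to 823 CPM. Junb was highest in monocyte-like cells, at 521 to 568 CPM and above B-lineage-like cells at 380 to 509 CPM without overlap, and was lowest in GMP-like (133 to 223 CPM) and pDC-like cells (113 to 184 CPM). Jund, the member that many resting cells express constitutively, was highest in B-lineage-like cells at 1166 to 1591 CPM, above cDC-like cells at 930 to 1067 CPM. GMP-like cells had the lowest Jund level, 296 to 372 CPM, below every other class.

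Atf3, a stress-induced member of the ATF family that also pairs with Jun proteins, had the sharpest contrast between classes. It stood at 227 CPM in Control, 299 in Butyrate, 293 in B12 and 286 in B12+Butyrate in cDC-like cells, and at 272, 281, 213 and 223 CPM in monocyte-like cells, so both ranges overlapped. Neutrophil-like cells held 3.94 to 5.13 CPM and GMP-like cells 5.67 to 9.16 CPM. The mean over libraries was 54 times as high in monocyte-like as in neutrophil-like cells. HSC/MPP-like cells followed with 17 to 62.2 CPM and overlapped B-lineage-like cells at 18.8 to 27.9 CPM. After each cell was thinned to 2000 UMIs, an Atf3 UMI was found in 34.1% to 41.3% of monocyte-like cells and in 1.28% to 1.83% of neutrophil-like cells; without thinning the shares were 72.3% to 80.7% and 3.53% to 4.31%. The median depth was 11717 to 12559.5 UMIs in the first class and 12508 to 14474 in the second. Free RNA in the droplets adds UMIs to every class, and its part in these shares was not tested. Atf3 differed between neutrophil-like stages, at 1.41 to 2.81 CPM in cycling and 13.5 to 27.9 CPM in mature cells. The neutrophil-like share is therefore not given as a background level. Between 5 and 30 cells per library and class were too shallow to thin.

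Egr1, a zinc finger factor induced through the serum response factor, was highest in B-lineage-like cells with 176 to 286 CPM and overlapped cDC-like cells with 136 to 215 CPM. It was lowest in pDC-like (48.3 to 59.1 CPM) and GMP-like cells (32.3 to 76 CPM). Ier2, a small nuclear immediate early protein, went the other way from most members: neutrophil-like cells led with 428 CPM in Control, 433 in Butyrate, 479 in B12 and 441 in B12+Butyrate. Monocyte-like cells had 300 to 314 CPM of Ier2 and GMP-like cells 194 to 278, and these 3 ranges did not overlap.

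Dusp1 and Btg2 act as brakes, Dusp1 as a phosphatase that switches off the kinases upstream of AP-1 and Btg2 as an antiproliferative protein that promotes mRNA decay. Dusp1 was highest in neutrophil-like (259 to 309 CPM) and monocyte-like cells (231 to 307 CPM), above T-like cells (148 to 202 CPM). It was lowest in pDC-like cells at 49.7 to 96.7 CPM. Btg2 was highest in pDC-like cells (427 to 535 CPM), overlapped by monocyte-like (408 to 539 CPM) and cDC-like cells (414 to 527 CPM), and was lowest in GMP-like cells (101 to 164 CPM).

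**Figure D2:**
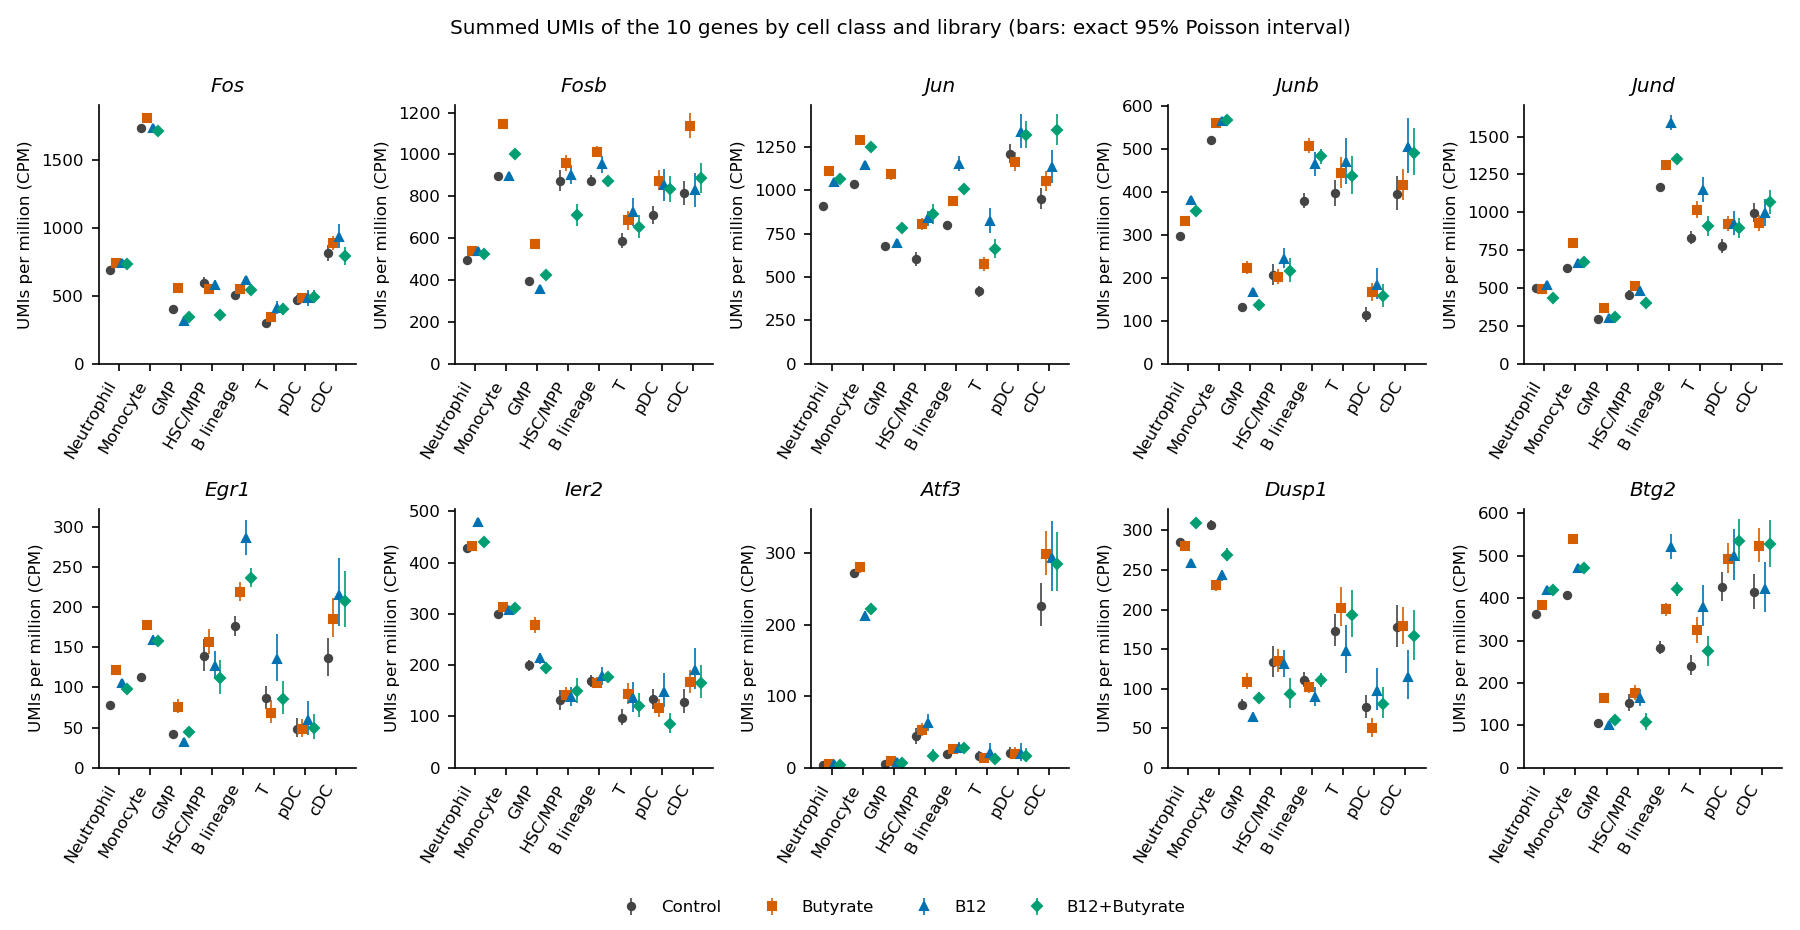
Level of each gene (CPM, axis from 0) in 8 cell classes, with 1 point per library and exact 95% Poisson intervals. Fos stands highest in monocyte-like cells (1712 to 1807 CPM), and Atf3 in cDC-like and monocyte-like cells, with 3.94 to 5.13 CPM in neutrophil-like cells.

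Between classes, a gene was counted as different where its range over the 4 libraries did not overlap. Monocyte-like against neutrophil-like cells, 5 of 10 members were higher (Fos, Fosb, Junb, Jund and Atf3) while 72.9% of 7052 genes were, and Ier2 was lower, as were 17.2%. The members' share of higher genes was below that of all genes. HSC/MPP-like against GMP-like cells, Fosb, Jund, Egr1 and Atf3 were higher (4 of 10; 41.1% of genes) and Ier2 was lower (1 of 10; 21%), shares near the background. B-lineage-like against T-like cells, Fos, Fosb, Jund, Egr1 and Ier2 were higher (5 of 10; 17.8% of genes) and Dusp1 was lower (1 of 10; 28.2%). Egr1 was 2.44 times as high in B-lineage-like as in T-like cells and Dusp1 0.577 times.

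Counted in UMIs per cell rather than in CPM, the order of the classes changed for most members, because GMP-like cells held a median of 28475.5 to 31485 UMIs and T-like cells 4612 to 5064. Fos kept its first place, with 23.3 to 24.1 UMIs per monocyte-like cell against 9.49 to 11.1 per neutrophil-like cell. Jun, among the lower levels in GMP-like cells in CPM, reached 19.6 to 32.9 UMIs per GMP-like cell, above its 13.9 to 17.5 per monocyte-like cell. Atf3 had 2.96 to 3.65 UMIs per monocyte-like cell and 0.0582 to 0.0745 per neutrophil-like cell, so its contrast was seen on both scales. Jund, highest in B-lineage-like cells in CPM, had 6.55 to 8.15 UMIs per cell there and 10.8 to 15.2 per cDC-like cell.

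Within the neutrophil line, most members had higher CPM in mature than in cycling cells. The stages were separated by cell cycle genes and by Retnlg, Mmp8, Mmp9, Cxcr2 and Il1b. Dusp1 stood at 148, 155, 129 and 156 CPM in cycling cells of Control, Butyrate, B12 and B12+Butyrate, and at 932, 1120, 1046 and 1102 CPM in mature cells. Every library showed this, and the mean was 7.14 times as high in mature cells. Junb was 4.52 times, Fos 3.73 times, Btg2 3.33 times, Egr1 2.62 times, Jund 2.11 times and Fosb 1.76 times as high in mature as in cycling cells. Atf3 went from 1.41 to 2.81 CPM in cycling cells to 13.5 to 27.9 CPM in mature ones. Ier2 was 1.42 times as high. Jun was the exception, with 881 to 1112 CPM in cycling and 961 to 1130 CPM in mature cells. In all, 9 of 10 members were higher without overlap, against 38.4% of 5781 genes, and 0 were lower, against 49.5%.

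Mature cells held 5485 to 6197.5 UMIs at the median and cycling cells 18738 to 20763, and on the scale of UMIs per cell the picture split. Dusp1 (5.84 to 7.49 UMIs per mature cell against 2.52 to 3.43 per cycling cell), Junb (5.52 to 7.11 against 3.57 to 5.12) and Atf3 (0.0848 to 0.182 against 0.0308 to 0.0577) were still higher without overlap. That is 3 of 10 members, against 7.2% of genes. Fos, with 10.1 to 13.3 UMIs per mature cell and 9.77 to 10.9 per cycling cell, overlapped, as did Egr1 and Btg2. Fosb, Jun, Jund and Ier2 were lower per mature cell (4 of 10), as were 87.6% of all genes. Within each library Fos was higher per mature than per cycling cell, Egr1 was lower and Btg2 went both ways. Per mature cell the mean was 1.16 times that of cycling cells for Fos, 1.04 times for Btg2 and 0.82 times for Egr1. In CPM the mean was 3.73, 3.33 and 2.62 times as high for these genes. The higher CPM of Egr1 and Btg2 in mature cells was thus not seen per cell. What sets the total UMIs of mature cells was not tested.

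Within the monocyte line, nonclassical cells (gated on Ace, Adgre4, Treml4 and Cd300e) stood above cycling monocyte-like cells for 7 of 10 members, against 25.5% of 7601 genes, and below for 0, against 32.6%. Atf3 had the largest difference, with 338 to 388 CPM in nonclassical and 97 to 154 CPM in cycling cells, 2.94 times as high. Dusp1 was 1.96 times, Junb 1.95 times, Btg2 1.62 times and Jund 1.6 times as high. Jun, Egr1 and Ier2 overlapped. In UMIs per cell the direction turned for several members: Fos had 16.8 to 18.5 UMIs per nonclassical cell and 26.3 to 29.4 per cycling cell. Fosb, Jun and Ier2 were lower too, which makes 4 of 10 members, against 80.9% of genes. Atf3, with 3.24 to 3.79 UMIs per nonclassical and 2.01 to 2.99 per cycling cell, was the 1 member still higher without overlap, against 4.97% of genes, and the other 5 overlapped. Of these, Jund, Egr1 and Btg2 were lower per nonclassical than per cycling cell within every library, while Junb and Dusp1 went both ways. Egr1, for example, had 1.18 and 1.69 UMIs per cell in Control. The share of all genes with 1 direction in every library was not counted. In classical cells, the largest gate, Fos reached 1980 to 2217 CPM and Atf3 294 to 401 CPM.

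**Figure D3:**
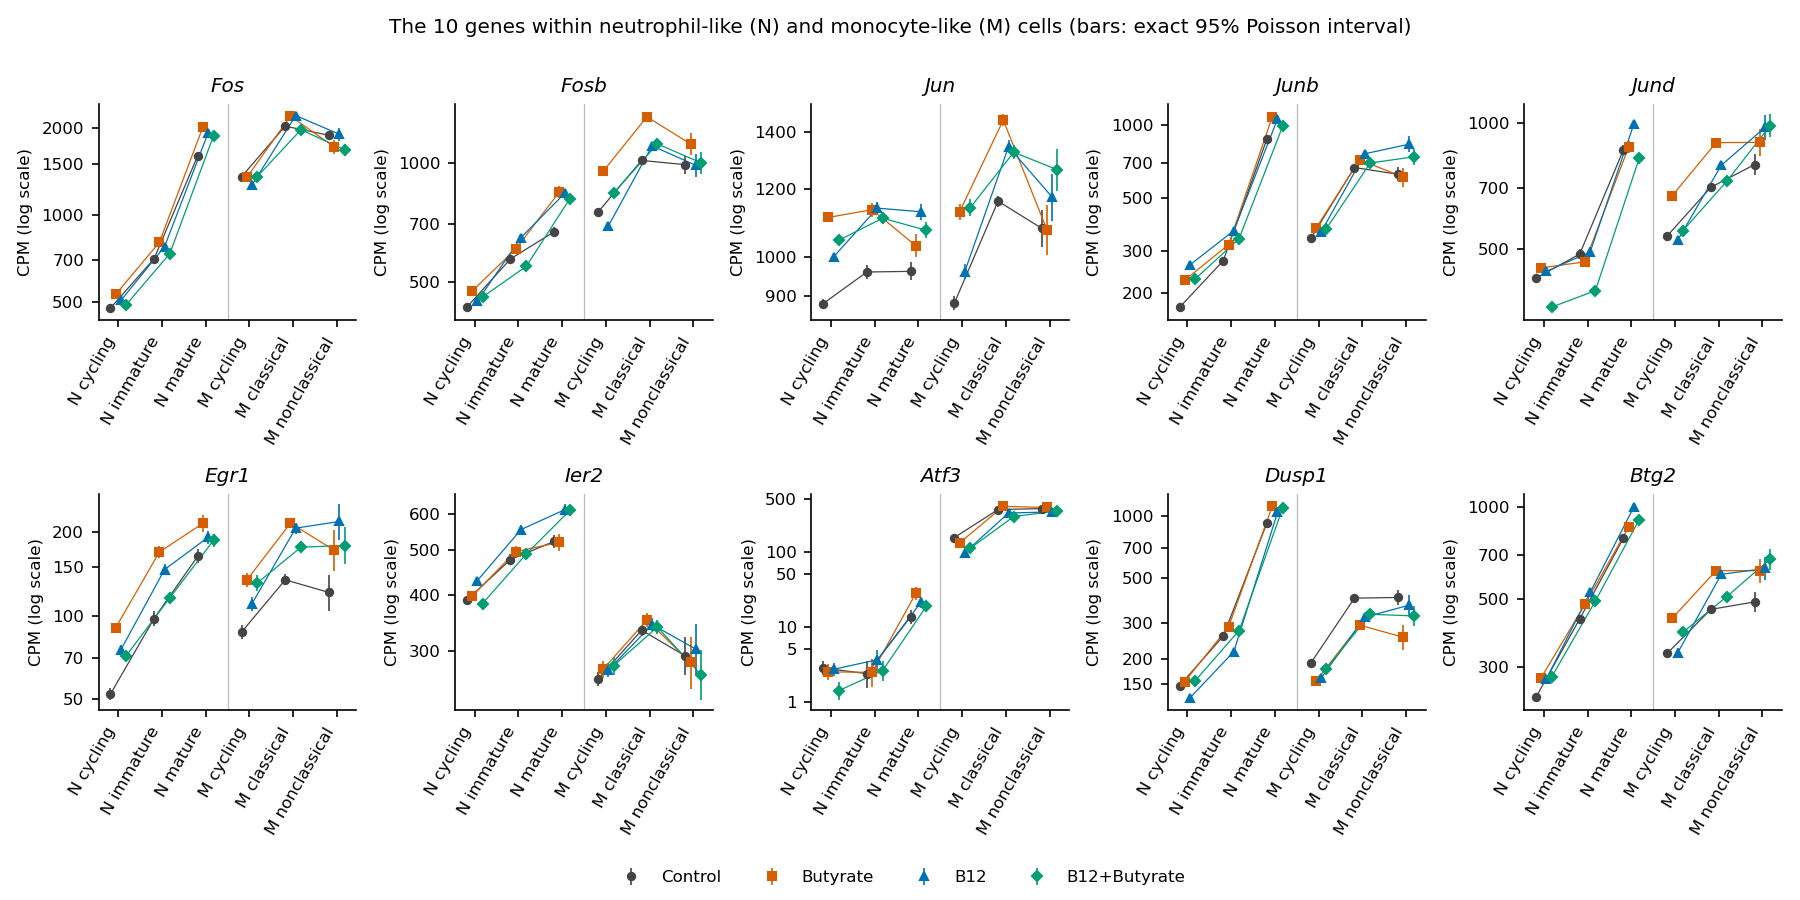
Level of each gene (CPM, log scale) in cycling, immature and mature neutrophil-like cells (N) and in cycling, classical and nonclassical monocyte-like cells (M), with 1 line per library and exact 95% Poisson intervals. Dusp1, Junb and Fos are higher in mature than in cycling neutrophil-like cells in every library, while Jun stays between 881 and 1141 CPM across the neutrophil gates.

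The same cells often held several members. At 2000 UMIs per cell, 5 or more of the 10 genes were detected in 74.6% to 84% of mature neutrophil-like cells, 32.8% to 40.7% of cycling ones, 72.7% to 82.4% of monocyte-like cells and 19.6% to 32.1% of GMP-like cells. No class was known to lack the members, so none gave a background share, and the part of free RNA in these shares was not tested. Across neutrophil-like cells of a library, Junb correlated with Dusp1 (Pearson r 0.468 to 0.491 on the log scale, 2626 to 4274 cells) and Fos with Dusp1 (0.436 to 0.506). These cells span all stages of maturation, so the correlations include the differences between stages given above. In monocyte-like cells the strongest pair was Fos with Fosb, at r 0.283 to 0.397.

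Between libraries, the question was whether B12 or butyrate, alone or on top of the other, went with other levels of the members within a class. Log2 ratios of (CPM + 10) are given, and a gene was called at 1.5-fold or more with at least 20 CPM in either library; this is a rule of size and no test, and comparisons that share a library are not independent. Control had the lowest level of the 4 libraries in 46 of 80 combinations of member and class (57.5%), against 22.3% of all 54468 combinations of gene and class. The highest level was in Butyrate in 35 of the 80 (21.2% of all combinations) and in B12 in 32 (29.1%). Jun and Junb were lowest in Control in 7 of 8 classes each, Dusp1 in none.

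The summed level of the heat shock genes was also lowest in Control in each of the 8 classes. Hspa1b alone was lowest in Control in 7 of them; in pDC-like cells it was 182 CPM in Control and 159 in B12+Butyrate. In monocyte-like cells Hspa1b stood at 477 CPM in Control, 740 in Butyrate, 920 in B12 and 735 in B12+Butyrate, and in GMP-like cells at 486, 734, 702 and 573 CPM. The list of 11 genes summed to 4404 CPM in Control and 5139 to 5769 CPM in the other libraries in monocyte-like cells, to 1116 and 1224 to 1376 CPM in neutrophil-like cells, and to 4834 and 5406 to 6644 CPM in B-lineage-like cells. Mitochondrial UMIs were 2.17% in Control, 2.7% in Butyrate, 2.08% in B12 and 2.3% in B12+Butyrate of monocyte-like cells. Barcodes over the mitochondrial limit made up 5.34% (B12+Butyrate) to 13.9% (Butyrate) of the libraries. The part of thawing, sorting and RNA quality in the results was not tested.

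In neutrophil-like cells no member passed 1.5-fold on the scale of CPM + 10 in any comparison. Egr1 came nearest, at a log2 ratio of 0.57 for Butyrate against Control; it passed with a pseudocount of 1 CPM (0.63) and with the same makeup of stages in each library (0.64), and was further from it with thinned cells (0.39). All genes passed it in 0.183% of cases for B12 against Control, 0.363% for Butyrate against Control, 0.225% for B12+Butyrate against B12 and 0.0813% for B12+Butyrate against Butyrate. The members' median log2 ratio was 0.14 for B12 and 0.09 for Butyrate against Control, with 9 and 8 of 10 members above 0 (44.3% and 47.7% of all genes). Mature cells made up 31.6% of the class in Control and 22.4% in Butyrate, and Retnlg stood at 3496 and 1807 CPM. With the same makeup of stages the median for Butyrate against Control was 0.17. Adding butyrate to B12 gave -0.06 with 2 of 10 above 0 (47.1% of genes), and adding B12 to butyrate gave -0.03 with 4 of 10 above 0 (45.6%). Atf3, below 20 CPM in this class, is among these 10 and could not have been called. Egr1 stood at 78.2 CPM in Control, 121 in Butyrate, 105 in B12 and 98.2 in B12+Butyrate. Junb had 298 CPM in Control, 332 in Butyrate, 381 in B12 and 356 in B12+Butyrate. Jun was lowest in Control at 910 CPM and lay between 1047 and 1110 CPM elsewhere. Dusp1 was lowest in B12 at 259 CPM and highest in B12+Butyrate at 309.

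Split by stage, the Egr1 difference between Butyrate and Control was 1.62-fold in cycling cells (90.3 against 52 CPM) and 1.67-fold in immature cells (170 against 97.5 CPM). In mature cells Egr1 was 215 CPM in Butyrate and 164 in Control. Fos in mature cells was 1610 CPM in Control and 1887 to 2028 CPM in the other libraries, and Fosb 669 CPM in Control and 813 to 846 CPM in the others. Atf3 in mature cells was 27.9 CPM in Butyrate and 13.5 in Control.

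In monocyte-like cells Egr1 was the member furthest from Control and the only one called. It stood at 113 CPM in Control, 178 in Butyrate, 159 in B12 and 158 in B12+Butyrate, so Control lay apart from the 3 treated libraries. Of 10 members, 1 passed 1.5-fold for Butyrate against Control, against 1.07% of genes, and 0 passed for B12 against Control (0.276%), B12+Butyrate against B12 (0.459%) and B12+Butyrate against Butyrate (0.169%). The median log2 ratio was 0.21 for Butyrate against Control, with 9 of 10 members above 0 (49.9% of genes), and 0.05 for B12 against Control, with 7 above 0 (48.4%). It was 0.01 for B12+Butyrate against B12 with 8 above 0 (47.4%). That count was 3 with the same makeup of stages, 4 with thinned cells and 5 as a mean over cells. The shares of all genes above 0 in these settings are not given here. For B12+Butyrate against Butyrate the median was -0.12 with 2 above 0 (48.6%). Butyrate had the highest level for 8 of the 10 members, against 26.4% of genes, among them Jund at 798 CPM against 635 to 672 CPM elsewhere, and Fosb at 1146 CPM against 896 to 1000. In UMIs per cell Butyrate was the highest library only for Fosb, Jund, Egr1 and Btg2. Fos was highest per cell in B12 (24.08 against 23.46 in Butyrate) and Atf3 in Control (3.654 against 3.646). Jun (17.51 against 16.75) and Ier2 (4.358 against 4.083) were highest per cell in B12+Butyrate.

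Dusp1 and Atf3 went another way in this class. Dusp1 was highest in Control, at 307 CPM, with 231 in Butyrate, 243 in B12 and 269 in B12+Butyrate. Its log2 ratio to Control was -0.40 for Butyrate and -0.32 for B12, short of 1.5-fold. Atf3 was lower where B12 had been given, at 213 and 223 CPM, than in Control and Butyrate, at 272 and 281 CPM. Over all cells of a library, Atf3 stood at 86.6 CPM in Control, 83.3 in Butyrate, 54.9 in B12 and 47 in B12+Butyrate. Monocyte-like cells made up 24% of the cells in Control, 20.7% in Butyrate, 18.1% in B12 and 14.7% in B12+Butyrate, in the same order as the level over all cells.

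**Figure D4:**
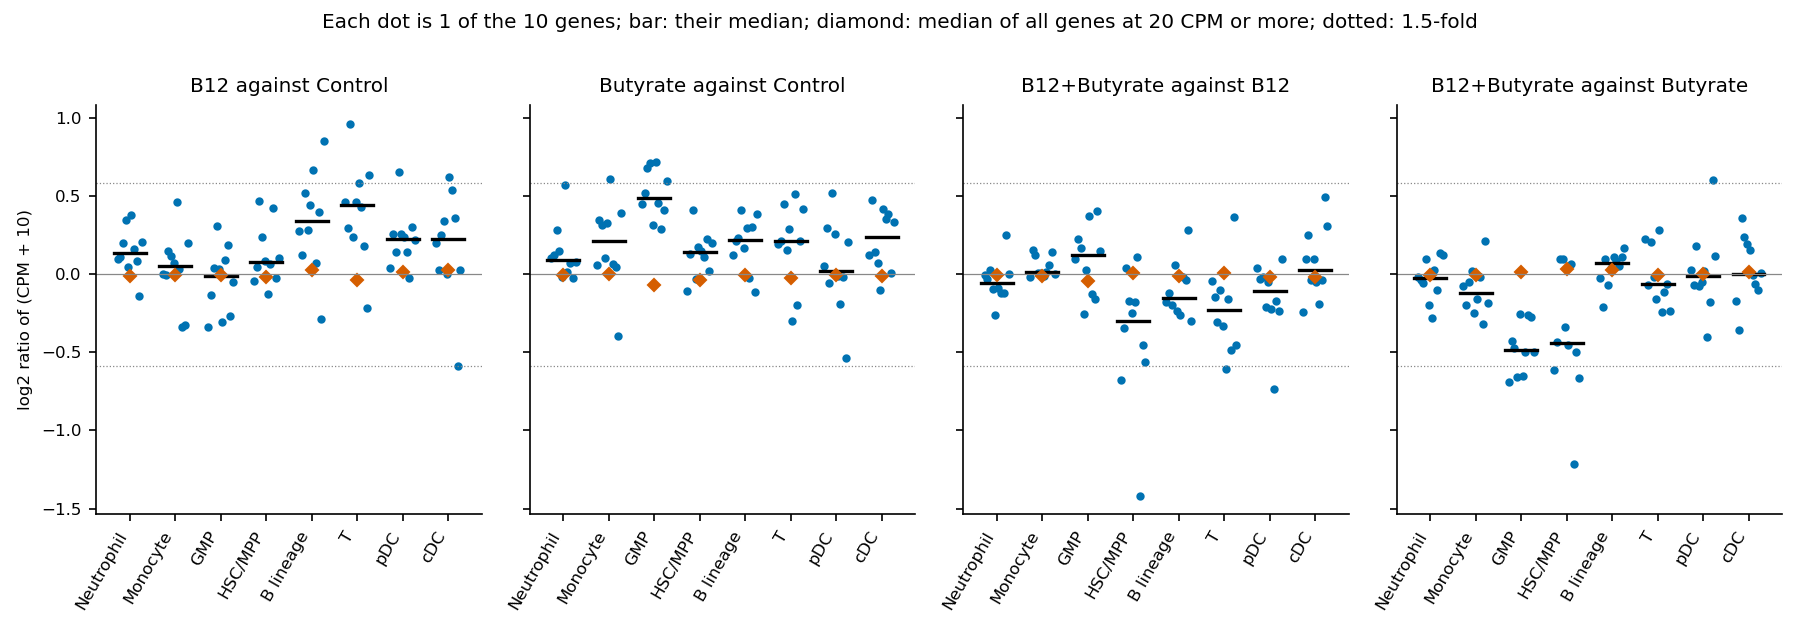
Log2 ratio of (CPM + 10) between libraries in 8 cell classes, with 1 dot per gene, the bar at the median of the 10 genes, the diamond at the median of all genes with at least 20 CPM and dotted lines at 1.5-fold. The dots of GMP-like cells lie above 0 for Butyrate against Control and below 0 for B12+Butyrate against Butyrate.

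The GMP-like cells, committed progenitors of granulocytes and monocytes, differed in 1 direction for every member. All 10 members were highest in the Butyrate library, where 19.6% of 6590 genes had their highest level. Jun stood at 677 CPM in Control, 1091 in Butyrate, 697 in B12 and 785 in B12+Butyrate. Junb was 133 CPM in Control, 223 in Butyrate, 167 in B12 and 138 in B12+Butyrate, and Egr1 was 42.2, 76, 32.3 and 44.8 CPM in the same order. Fos reached 556 CPM in Butyrate against 317 to 404 CPM elsewhere, and Fosb 570 CPM against 359 to 422. The Poisson intervals of Butyrate lay above those of the other 3 libraries for 9 of the 10 members. For Atf3, at 9.16 CPM in Butyrate, they overlapped. The share of all genes separated in this way was not counted. These intervals hold counting error only, so the separation is a description and no test between groups.

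For Butyrate against Control in these cells the median log2 ratio of the members was 0.49, and that of all genes -0.07. Jun (1.6-fold), Junb (1.64-fold), Egr1 (1.65-fold) and Btg2 (1.51-fold) passed the 1.5-fold rule, 4 of 10 members against 0.745% of genes, and all 10 were above 0, against 34.6% of genes. In B12+Butyrate the levels lay nearer to Control: against Butyrate the median was -0.48, with 0 of 10 above 0 (54.3% of genes). Fos (0.62 times), Junb (0.634 times) and Egr1 (0.637 times) passed 1.5-fold, 3 of 10 members against 0.563% of genes. B12 against Control gave a median of -0.01 and B12+Butyrate against B12 one of 0.12, with 0 members called in either, against 0.186% and 0.109% of genes.

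The GMP-like class held 134 cells in Butyrate, the fewest, and 192 to 277 in the other libraries, with a median of 28475.5 to 31485 UMIs per cell. Per cell, Jun stood at 32.9 UMIs in Butyrate and at 19.6 to 25.4 in the others, and Egr1 at 2.29 UMIs against 0.928 to 1.45. At 2000 UMIs per cell, no member at all was detected in 13% of GMP-like cells of Control, 2.99% in Butyrate, 11.2% in B12 and 12% in B12+Butyrate. Markers of the later stages were higher too. The 9 monocyte markers, all detected in each library, summed to 1841 CPM in Control, 2527 in Butyrate, 1920 in B12 and 2222 in B12+Butyrate of GMP-like cells, and the 12 neutrophil markers, all detected too, to 1820, 2291, 1903 and 2217 CPM. Malat1, a nuclear RNA, was 5286 CPM in Control, 6367 in Butyrate, 4893 in B12 and 5364 in B12+Butyrate. Mitochondrial UMIs were 3.38% in Butyrate and 2.87% to 3.07% in the others. The part of these shifts in the result was not tested.

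**Figure D5:**
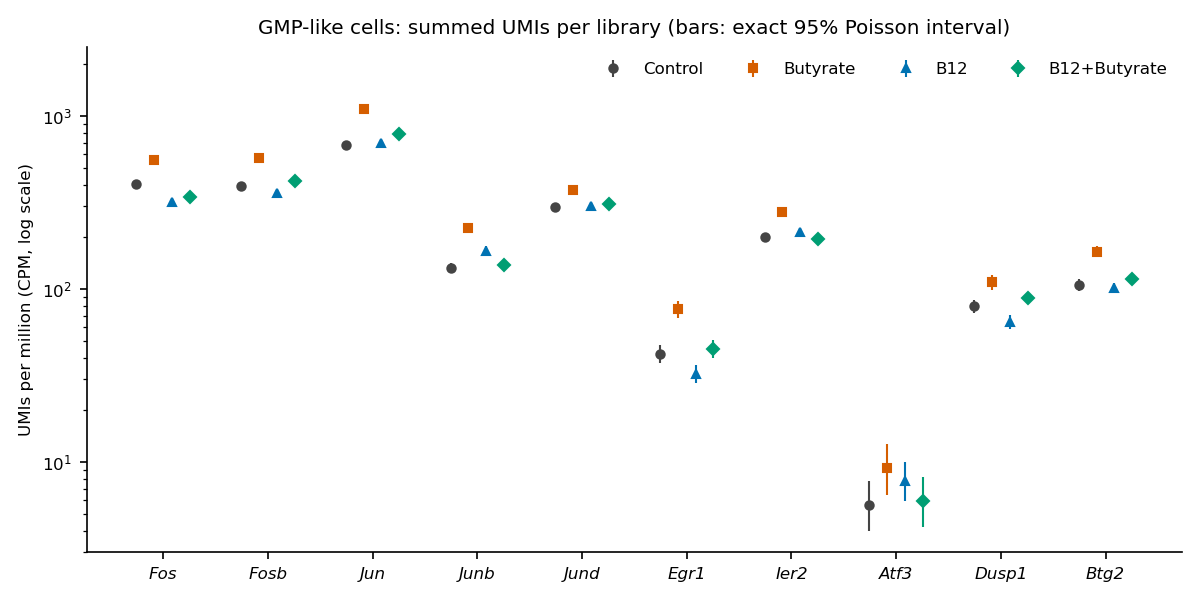
Level of the 10 genes in GMP-like cells (CPM, log scale) in each library, with exact 95% Poisson intervals. The Butyrate square is the highest point for every gene, for example 1091 CPM for Jun against 677 to 785 CPM in the other libraries.

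HSC/MPP-like cells were few, with 78 cells in Control, 106 in Butyrate, 78 in B12 and 39 in B12+Butyrate, and a median depth of 15681.5, 21299, 21701.5 and 26496 UMIs. There the B12+Butyrate library had the lowest level for 7 members, against 26.8% of genes. Fos was 357 CPM in it and 550 to 593 CPM in the others, Atf3 17 CPM against 43.7 to 62.2 CPM, and Btg2 108 CPM against 152 to 177 CPM. Of 10 members, 2 passed 1.5-fold against B12 (Fos and Atf3; 4.94% of genes) and 3 against Butyrate (Fos, Atf3 and Btg2; 4.23% of genes), all lower. Jun differed, with 862 CPM in B12+Butyrate and 602 in Control. In UMIs per cell B12+Butyrate was lowest only for Fos (9.67 against 10.8 to 13.1) and Atf3 (0.462 against 0.795 to 1.36). For the other members Control was lowest per cell, with Btg2 at 2.77 UMIs in Control and 2.92 in B12+Butyrate. The lower CPM of most of the 7 members was thus not seen per cell. The markers of the class summed to 6115 CPM in Control, 4886 in Butyrate, 4464 in B12 and 4366 in B12+Butyrate, with Mecom at 547, 328, 444 and 294 CPM. The neutrophil markers summed to 312, 153, 873 and 190 CPM, and Hspa1b was 193, 245, 637 and 445 CPM. The part of these shifts was not tested.

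In B-lineage-like cells B12 had the highest level for 7 members, against 34.3% of genes. Btg2 was 283 CPM in Control, 373 in Butyrate, 520 in B12 and 421 in B12+Butyrate, and Egr1 was 176, 219, 286 and 237 CPM. Both were called for B12 against Control, at 1.81-fold and 1.59-fold, 2 of 10 members against 2.47% of genes. Of the members 9 were above 0 (55.7% of genes) with a median of 0.34. Jun went from 800 to 1153 CPM and Jund from 1166 to 1591 CPM between these libraries, both short of 1.5-fold. In UMIs per cell B12 was not the highest library for any member. Btg2 had 1.59 UMIs per cell in Control, 2.29 in Butyrate, 2.41 in B12 and 2.55 in B12+Butyrate. Egr1 had 0.991, 1.34, 1.33 and 1.43. B-lineage-like cells of B12 held a median of 4057 UMIs, against 4907 to 5226 in the other libraries. The part of this depth was not tested. Hspa1b in these cells was 648 CPM in Control and 1103 CPM in B12. The B-lineage markers differed as well, from a sum of 16680 CPM in Control to 12340 in B12, with Ighm, the heavy chain of IgM, at 7244 and 3580 CPM and Vpreb3, a gene of B cell precursors, at 293 and 440 CPM. The part of a different makeup of B-lineage-like cells was not tested.

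In CPM, T-like cells gave a like picture, from 122 cells in B12 and 335 in Control. Jun was 417 CPM in Control, 573 in Butyrate, 823 in B12 and 663 in B12+Butyrate, and Btg2 was 241, 324, 379 and 274 CPM. For B12 against Control both were called, at 1.95-fold and 1.55-fold. This is 2 of 10 members against 11.7% of genes, a background higher than the 2.47% in B-lineage-like cells. The median of the members was 0.45, with 9 of 10 above 0 (45.2% of genes), and that of all genes was -0.04. In UMIs per cell the picture was not that of B-lineage-like cells. B12 was the highest library per T-like cell for Fosb, Jun, Jund, Egr1, Atf3 and Btg2. Fos, Junb and Dusp1 were highest per cell in B12+Butyrate and Ier2 in Butyrate. Jun had 2.16 UMIs per cell in Control and 4.34 in B12, and Btg2 1.25 and 2. Hspa1b was 630 CPM in Control and 1119 in B12 of these cells. The T markers summed to 5138 CPM in Control and 4136 in B12, with Cd247 at 991 and 560 CPM and Trac at 557 and 367 CPM; their part was not tested. In the dendritic classes, of 42 to 121 cells, the median of the members lay between -0.11 and 0.24. In pDC-like cells 1 of 10 members was called higher for B12 against Control (4.61% of genes) and 1 for B12+Butyrate against Butyrate (3.09%). For B12+Butyrate against B12, 1 was called lower there (5.86%). In cDC-like cells 1 member was called higher and 1 lower for B12 against Control (6.99% and 7.09% of genes).

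Other genes of the pathway were taken from lists. In GMP-like cells, for Butyrate against Control, the other immediate early transcription factors had 6 of 6 measured genes above 0 (median 0.49), the feedback regulators 8 of 8 (0.26) and the growth arrest and stress partners 7 of 7 (0.41), with 1 gene past 1.5-fold in each list. The AP-1 subunits and partners outside the members had 2 of 5 above 0 (-0.02) and the upstream kinases and factors 3 of 11 (-0.07), at the median of all genes. The heat shock list had 7 of 10 above 0 (0.14) with 2 genes past 1.5-fold. For B12+Butyrate against Butyrate the first 3 lists had 0 of 6, 0 of 8 and 1 of 7 genes above 0, with medians of -0.32, -0.49 and -0.31.

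In neutrophil-like and monocyte-like cells the AP-1 partners (6 and up to 10 measured genes) and the upstream kinases and factors (8 and 11) had 0 genes past 1.5-fold in the 4 comparisons. Among the other immediate early factors Ier3, an apoptosis regulator, was lower in monocyte-like cells given butyrate: 33.1 CPM in Butyrate and 33 in B12+Butyrate, against 64.7 in Control and 76 in B12. Klf10, a growth factor-induced zinc finger factor, was 132 CPM in Butyrate and 92.6 in Control. The feedback regulators Socs3, an inhibitor of cytokine signalling, at 5.42 against 21.5 CPM, and Zfp36l1, an mRNA decay factor, at 22.7 against 40.7 CPM, were lower in monocyte-like cells of Butyrate than of Control. Tnfaip3, a brake on NF-kappa-B, was 55.6 CPM in B12+Butyrate and 93 in Butyrate. Of the growth arrest and stress partners 0 passed; Gadd45b had 134 CPM in B12 and 90.4 in Control, and Rhob 231 CPM in Butyrate and 159 in Control. In neutrophil-like cells Hspa1b (78.8 against 28.4 CPM) and Hspa1a (32.7 against 17.1 CPM) were the list genes past 1.5-fold for B12 against Control.

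Finally, likeness to the members was measured as Pearson's r with the mean of their log2(CPM + 10) over 32 sums of class and library, among 3770 genes at 50 CPM or more. Points of 1 library or class share cells' handling, depth and lineage, so r is a description. With each gene centred within its class, which leaves the differences between libraries, the closest genes included Klf2 (0.83), Rdm1 (0.81), Rhob (0.77), Tex14 (0.72), Btg1 (0.71), Ctsh (0.71), Dnajb4 (0.69), Gm26802 (0.69), which lies next to Fosb, and Chka (0.68). Dnajb4, a chaperone gene, is known to respond to heat shock. Against the mean of the other 9 members, Btg2 followed the group most closely (0.87) and Dusp1 least (0.12). Without centring, which leaves the differences between classes in, the closest were Mcl1 (0.89), Pdlim5 (0.87), Cdc42 (0.87), Kdm7a (0.85), Dleu2 (0.85), Snx20 (0.84), Notch2 (0.83), Lgals3 (0.83), Il6ra (0.83) and Samhd1 (0.83), and Fos was the member closest to the other 9 (0.82) and Ier2 the one furthest from them (0.18).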

How the data were processed

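Single-cell libraries (10x Genomics 3' kit, v3.1, per the labels' protocols) of pooled Tet2+/- marrow cells were analysed, 1 per group. The authors deposited raw UMI counts per gene and cell, which per the file headers come from Cell Ranger 7.1.0 and, per the submitters' processing notes, rest on GRCm39; no label or header says whether intronic reads were counted. Cells with at least 500 genes, 1000 UMIs and at most 10% mitochondrial UMIs were kept. A cell joined a class when it passed the gate of that class alone: a least number of its markers and of marker UMIs per 10000, with thresholds set after seeing the marker UMIs and without any member. Cycling cells held at least 5 of 9 cycle markers, mature neutrophil-like cells 50 mature-marker UMIs per 10000, and nonclassical cells 2 markers; 10 classes were gated, and 8 with at least 35 cells in every library were used. Doublets were kept in the main values, except cells of several gates, and removed with Scrublet (scanpy 1.11.5) as an alternative. UMIs were summed per class and library and scaled to CPM, and intervals are exact (scipy 1.17.1, 95%). Genes were named as follows: all members, up to 3 list genes per comparison with the largest log2 ratio in neutrophil-like and monocyte-like cells, and the 10 genes most like the members; some genes that this rule names are not reported here. The rule of size was tested on simulated counts. There were 10 alternatives. The members, lists and classes were chosen with earlier results of these data known.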

Additional observations from a re-analysis of the deposited data

How the results depend on the processing

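No paired analysis was possible because each group was 1 library, so no library could be left out either. The members' median log2 ratios in neutrophil-like and monocyte-like cells stayed within the counting interval in 64 of 80 recalculations and moved out of it in 16; the cause was not tested.
In neutrophil-like cells, B12 against Control (0.14) moved to 0.18 with a pseudocount of 1 CPM, 0.17 with median-of-ratios scaling and 0.20 as a mean over cells. Butyrate against Control (0.09) moved to 0.17 with the same makeup of stages. B12+Butyrate against Butyrate (-0.03) moved to 0.0105 with median-of-ratios scaling, -0.0007 as a mean over cells, 0.0052 with thinned cells and -0.0656 with the same makeup, so it had no fixed direction.
In monocyte-like cells, B12 against Control (0.05) moved to 0.11 as a mean over cells and 0.13 with thinned cells. Butyrate against Control (0.21) moved to 0.18 with median-of-ratios scaling, 0.25 as a mean over cells and 0.27 with thinned cells. B12+Butyrate against B12 (0.01) moved to -0.0520 with the same makeup, and B12+Butyrate against Butyrate (-0.12) to -0.20 as a mean over cells and -0.21 with thinned cells.
In GMP-like cells the 9 alternatives run gave medians of 0.45 to 0.60 for Butyrate against Control and of -0.53 to -0.40 for B12+Butyrate against Butyrate. Dusp1 in pDC-like cells, B12+Butyrate against Butyrate, reversed from 0.61 to -0.10 with thinned cells. Thinning moved 144 of 320 single-member ratios out of their counting interval and changed the sign of 13 of the 149 that were 0.2 or more in size, and the stricter gate changed the sign of 2 of these. Of 23 single-member ratios past 1.5-fold, 17 (stricter gate) to 23 (pseudocount) stayed past it in the alternatives that cover all classes. Depth limits Atf3 in neutrophil-like and GMP-like cells, below 20 CPM, and the classes of 39 to 121 cells.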
